A study of Homo sapiens with 8 samples.

Results

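The genes described here encode 10 receptors for growth hormone, prolactin and cytokines, namely PRLR, GHR, EPOR, IL20RB, IL6R, IL6ST, LIFR, IL4R, IFNGR1 and IFNAR2. Their levels were measured in Caco-2 cells (HTB-37). This line from a human colorectal adenocarcinoma grows into monolayers that take on features of small intestinal enterocytes. The cells were cultured for 21 days without flow on Transwell inserts (n = 4) or in the gut-on-chip under a medium flow of 100 µL/h (n = 4), with a shear stress near 0.002 dyne/cm2. All samples were untreated, came from this cell line at passages 29 to 45 and were kept in the same medium with serum. Device, flow, medium supply and lysis differed together between the culture systems, so their effects cannot be told apart. Nothing states that replicates were separate experiments, so the FDR values reflect only how far these samples vary, possibly for technical reasons.

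The members were found by gene symbol among 22392 genes that have a probe set with 1 annotated symbol. Where a gene had several probe sets it was to be chosen by the highest mean level over the 8 arrays, but each of the 10 genes had 1 probe set, so this choice removed nothing. Levels are log2 values from robust multiarray analysis (RMA), with array medians between 2.462 and 2.485, and the files hold no detection calls. A log2 difference (log2FC) is the mean level in the gut-on-chip minus that in the Transwell inserts. It was tested with limma, and the FDR was adjusted over the whole table of 53617 probe sets, and 0.01 was the threshold. The 10 genes were proposed with earlier results of these arrays known, so their number of changes is a description and no evidence about receptors in general.

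All of these receptors lack enzyme activity of their own. Their complexes signal through Janus kinases (JAKs) bound to receptor tails, and these kinases phosphorylate STAT transcription factors. Class I receptors include those for prolactin, growth hormone, erythropoietin and most interleukins, and class II receptors bind interferons and the interleukin 10 family. Many work as complexes in which a private chain binds the ligand and a shared chain completes the signal. In the gut, such receptors take part in mineral uptake, epithelial repair, acute-phase responses and defence against viruses.

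Of the 10 receptors, 6 were upregulated in the gut-on-chip, 3 were downregulated and EPOR did not pass the test. With 1 probe set taken for each of the 22392 genes, 8.81% were upregulated and 7.10% were downregulated, and among all 53617 probe sets the shares were 5.19% and 4.43%. The arrays of the culture systems did not overlap for 9 of the 10 receptors, as was the case for 30.7% of all genes. The hormone receptor genes PRLR and GHR had the largest decreases, and the remaining decrease was that of the cytokine receptor gene IL6R (log2FC = -0.83). The 6 increases were all in chains of cytokine or interferon receptors, which make up most of the 10. In such bulk RNA, fewer cells that express a gene cannot be told apart from less of its RNA per cell.

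**Figure D1:**
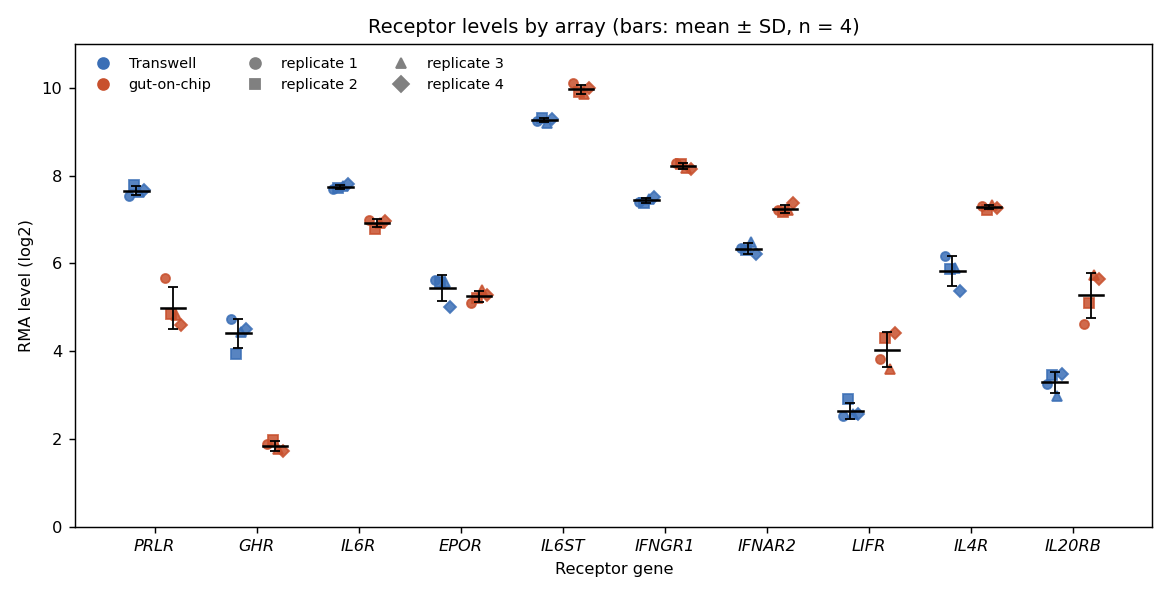
RMA level on the log2 scale (vertical axis) of each receptor gene (horizontal axis, ordered by log2FC) in 4 Transwell arrays (blue) and 4 gut-on-chip arrays (red), with symbols for replicates and black bars for mean ± SD. PRLR, GHR and IL6R lie lower in every gut-on-chip array, EPOR overlaps, and the other 6 lie higher.

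PRLR encodes the prolactin receptor, which in the intestine of mammals has been tied to calcium and salt transport. Its level was 7.54, 7.78, 7.63 and 7.68 in Transwell replicates 1 to 4, and 5.67, 4.84, 4.83 and 4.59 in the gut-on-chip. The groups were 1.87 apart at their nearest arrays, and gut-on-chip replicate 1 kept the highest level of its group. The fall corresponds to 6.38-fold (log2FC = -2.67, SE 0.20, FDR = 1.77e-05 from limma). Without gut-on-chip replicate 1 the log2FC was -2.90. The spread between arrays was 0.10 (SD, n = 4) on Transwell inserts and 0.47 (SD, n = 4) in the gut-on-chip.

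GHR encodes the growth hormone receptor, the closest relative of PRLR, which also serves as the source of a soluble hormone-binding protein. Transwell levels were 4.74, 3.94, 4.44 and 4.50, and gut-on-chip levels were 1.88, 1.98, 1.77 and 1.72. The groups did not overlap, and the deposited values differed by a log2FC of -2.57 (SE 0.20, FDR = 1.93e-05 from limma). All gut-on-chip values lay below the array medians, and the files give no background level, so this difference may understate the fall and no fold is given. Within an array, the log2 ratio of PRLR to GHR differed by -0.10 between groups (SD 0.43 for Transwell and 0.44 for gut-on-chip arrays) and ran from -0.32 to 0.09 when 1 array was left out, the positive value without Transwell replicate 2. Since GHR was that low in the gut-on-chip, this ratio does not measure whether both genes fell alike.

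EPOR encodes the erythropoietin receptor, known best from red cell precursors. Its level was 5.63, 5.58, 5.57 and 5.01 in the Transwell inserts and 5.09, 5.21, 5.40 and 5.29 in the gut-on-chip. The groups overlapped because Transwell replicate 4 lay below all the others. The log2FC was -0.20 (SE 0.16, FDR = 0.503 from limma), and -0.35 (FDR = 0.118) without that array. EPO, the gene of its ligand, fell from 4.90 ± 0.17 (SD, n = 4) to 3.51 ± 0.07 (SD, n = 4), with a log2FC of -1.38 (FDR = 0.000148 from limma).

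Receptors of the interleukin 6 family share the chain gp130, encoded by IL6ST, which pairs with IL6R or LIFR. IL6R, which binds interleukin 6, had levels of 7.70, 7.71, 7.76 and 7.81 in the Transwell inserts and 7.0, 6.78, 6.92 and 6.96 in the gut-on-chip. No array of one culture system reached those of the other, and IL6R fell by 0.83 on the log2 scale (SE 0.07, FDR = 4.67e-05 from limma). IL6ST had levels of 9.25, 9.31, 9.21 and 9.29 in the Transwell inserts and 10.10, 9.91, 9.86 and 9.99 in the gut-on-chip. The shared chain thus lay higher in every gut-on-chip array, with a log2FC of 0.70 (SE 0.07, FDR = 7.09e-05 from limma).

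LIFR encodes the chain that joins gp130 to bind leukaemia inhibitory factor, a cytokine that acts on stem cells and epithelia. Transwell levels were 2.52, 2.91, 2.58 and 2.57, close to the array medians, and gut-on-chip levels were 3.82, 4.31, 3.60 and 4.42. Every gut-on-chip array lay above every Transwell array, by at least 0.68 (log2FC = 1.39, SE 0.22, FDR = 0.00171 from limma). LIF, the gene of its ligand, was upregulated as well, from 4.82 ± 0.08 to 5.70 ± 0.18 (SD, n = 4 each, log2FC = 0.88, FDR = 0.000843 from limma). OSMR, which encodes the other partner of gp130 for oncostatin M and is the neighbour of LIFR on chromosome 5, had a level of 1.49 in both groups (log2FC = 0.00, FDR = 0.999), below the array medians.

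IL4R encodes the chain shared by the receptors for interleukin 4 and interleukin 13, cytokines that drive mucus production and barrier changes in epithelia. Its levels were 6.18, 5.87, 5.90 and 5.37 in the Transwell inserts and 7.32, 7.22, 7.34 and 7.27 in the gut-on-chip. The gut-on-chip arrays agreed closely (SD 0.05, n = 4) whereas the Transwell arrays spread more (SD 0.34, n = 4). IL4R rose 2.74-fold (log2FC = 1.46, SE 0.15, FDR = 0.000129 from limma). Its partner in epithelial cells, IL13RA1, had levels of 9.93 ± 0.04 and 9.68 ± 0.15 (SD, n = 4 each, log2FC = -0.25, FDR = 0.0561 from limma). IL13RA1 passed with a log2FC of -0.33 (FDR = 0.00394) once gut-on-chip replicate 1 was left out.

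IL20RB, a class II chain, forms receptors for interleukins 19, 20 and 24, which act on epithelia such as the skin. It had the largest increase of the 10 receptors, from levels of 3.26, 3.45, 2.97 and 3.49 in the Transwell inserts to 4.61, 5.10, 5.73 and 5.64 in the gut-on-chip. Replicates 3 and 4 of the gut-on-chip were the highest and replicate 1 was the lowest of that group, still 1.12 above the nearest Transwell array. The rise corresponds to 3.94-fold (log2FC = 1.98, SE 0.26, FDR = 0.000508 from limma). Its partner chain IL20RA had levels of 2.12 ± 0.37 and 2.02 ± 0.17 (SD, n = 4 each, log2FC = -0.11, FDR = 0.813), below the array medians.

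The interferon receptors each consist of 2 chains. IFNGR1, the chain that binds interferon gamma, had levels of 7.39, 7.37, 7.47 and 7.51 in the Transwell inserts and 8.29, 8.26, 8.17 and 8.15 in the gut-on-chip. It rose by 0.78 on the log2 scale (SE 0.07, FDR = 4.26e-05 from limma), and the groups lay 0.64 apart. For its partner IFNGR2 the levels were 5.94 ± 0.02 and 5.90 ± 0.16 (SD, n = 4 each, log2FC = -0.04, FDR = 0.886).

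IFNAR2 binds type I interferons, the alpha and beta interferons of the antiviral response. Its levels were 6.35, 6.31, 6.49 and 6.21 in the Transwell inserts and 7.21, 7.17, 7.21 and 7.37 in the gut-on-chip. All gut-on-chip arrays lay above all Transwell arrays (log2FC = 0.90, SE 0.09, FDR = 9.27e-05 from limma). IFNAR1, the second chain of that receptor, had levels of 7.53 ± 0.05 and 7.43 ± 0.14 (SD, n = 4 each, log2FC = -0.10, FDR = 0.565).

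The log2 ratios of chains that work together are given as a description without a test, since members that differed between the groups had been paired with chains whose levels were known. IL6R fell relative to IL6ST by 1.53 on the log2 scale, and this ratio varied little between arrays (SD 0.06 and 0.08, n = 4 each). LIFR rose relative to IL6ST by 0.69, with Transwell levels of LIFR close to the array medians, which may limit this ratio. IL4R rose relative to IL13RA1 by 1.71, IFNGR1 relative to IFNGR2 by 0.82 and IFNAR2 relative to IFNAR1 by 0.99, and in these last pairs the partner itself did not pass the test. OSMR and IL20RA lay below the array medians, so the ratios of LIFR to OSMR and of IL20RB to IL20RA only repeat the rise of LIFR and IL20RB. IL22RA1, another partner of IL20RB, was not paired here and is described with the receptor family. A ratio shows unequal change of transcripts without giving the amounts of the chains.

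**Figure D2:**
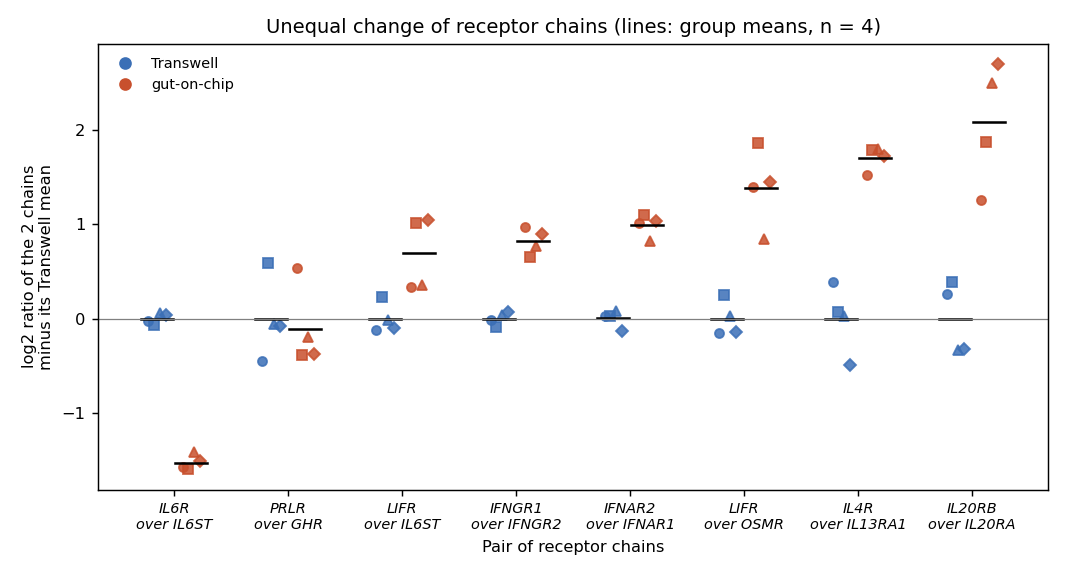
log2 ratio of 2 receptor chains within an array, minus its mean in the Transwell inserts (vertical axis), for 8 pairs (horizontal axis). Points are arrays (blue Transwell, red gut-on-chip) and lines are group means, and IL6R over IL6ST lies lowest at -1.53 while PRLR over GHR overlaps. OSMR, IL20RA and, in the gut-on-chip, GHR lay below the array medians, which limits the pairs that hold them.

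The 10 receptors were set beside the rest of their family. These were 36 further chains of class I and class II receptor complexes, listed from textbook knowledge. Of these, 33 had a probe set with 1 symbol, of which 29 did not pass the test, 2 rose and 2 fell. Over all genes the shares were 8.81% upregulated and 7.10% downregulated. In the whole family of 43 measured chains, 8 were upregulated and 5 were downregulated. Of these calls, 6 and 3 came from the 10 receptors, which were chosen with earlier results known, so the family counts are not set against those shares. The median log2FC was 0.74 for the 10 receptors, 0.02 for the 24 other class I chains, -0.10 for the 9 other class II chains and 0.01 for all genes. Mean levels below the median of all probe sets were found for 15 of the 33 other chains and for none of the 10 receptors.

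Among the other class II chains, IFNLR1 of the interferon lambda receptor and IL22RA1 of the interleukin 22 receptor fell. IFNLR1 decreased from 6.11 ± 0.13 to 5.38 ± 0.18 (SD, n = 4 each, log2FC = -0.73, FDR = 0.00241 from limma), although its FDR reached 0.0108 with 1 array left out, and the call was lost without Transwell replicate 2 or 3. IL22RA1 decreased from 7.81 ± 0.10 to 7.11 ± 0.17 (SD, n = 4 each, log2FC = -0.70, FDR = 0.000755). IL10RB, the second chain of both of these receptors, had a log2FC of 0.20 (FDR = 0.280). The upregulated class I chains were IL3RA (log2FC = 0.91, FDR = 0.00391) and CSF2RA (0.81, FDR = 0.00983). The call of CSF2RA was lost whichever of the 8 arrays was left out (FDR at most 0.0323). That of IL3RA was lost without 5 of the arrays (Transwell replicates 1, 2 and 4 and gut-on-chip replicates 3 and 4, FDR at most 0.0143).

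**Figure D3:**
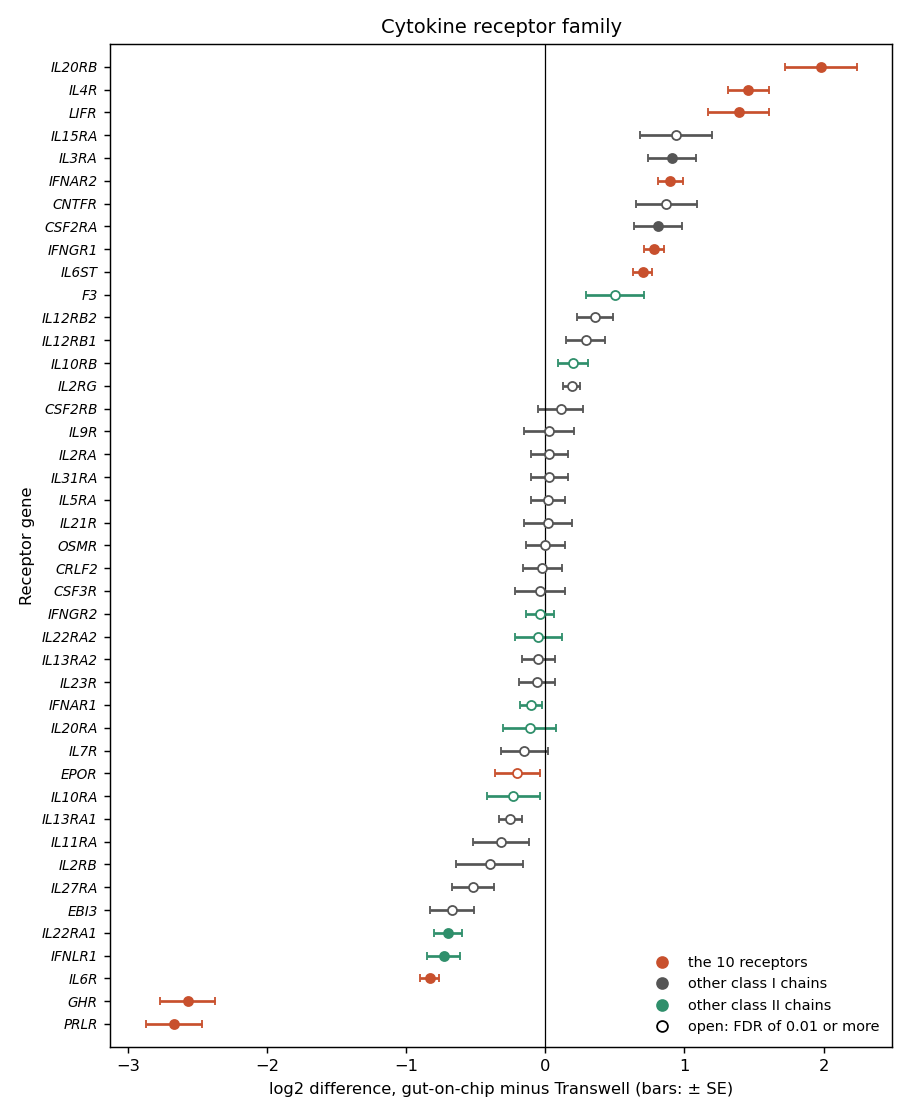
log2FC (horizontal axis, bars ± SE) of 43 measured receptor chains (vertical axis, ordered by log2FC), with the 10 receptors in red, other class I chains in grey and other class II chains in green. Filled points have an FDR under 0.01, and PRLR and GHR at -2.67 and -2.57 lie apart from all other chains.

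Several of these genes lie in clusters, for which neighbours can be compared (GRCh38.p14). On chromosome 5 lie PRLR (chr5:35048756-35230487), LIFR (chr5:38474668-38608403), GHR (chr5:42423439-42721878) and IL6ST (chr5:55935095-55994963), of which PRLR and GHR fell and LIFR and IL6ST rose. IFNAR2 (chr21:33229938-33265664) stands beside IL10RB, IFNAR1 and IFNGR2, whose log2FC values were 0.20, -0.10 and -0.04 against 0.90 for IFNAR2. IFNGR1 (chr6:137197484-137219385) follows IL20RA and IL22RA2, with values of -0.11 and -0.05 against 0.78. EPOR (chr19:11377207-11384314), IL20RB (chr3:136957983-137011085), IL6R (chr1:154405343-154469450) and IL4R (chr16:27313756-27364778) lie on other chromosomes.

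Sequence upstream of the annotated transcript starts was taken from RefSeq (GRCh38.p14), which gave 19 windows of 250 bases for 9 of the 10 receptors. The windows differed widely in CpG dinucleotides, which are dense in the promoters of many broadly expressed genes. PRLR had 6 and 3 in its 2 windows, GHR between 0 and 23 in 7, IL20RB 4, EPOR 10, IL6R 22, IFNGR1 24 and 19, IL6ST 31, IL4R 35 and LIFR between 0 and 44 in 3. Over 35116 windows of all genes the median was 11, with quartiles of 3 and 23. The windows of PRLR, which fell most, and of IL4R and IL6ST, which rose, are shown to display this contrast, with CpG dinucleotides in capitals. The annotated IL4R gene begins at chr16:27313756, inside its window, so that window precedes an inner start. As IL6R fell and IL20RB rose, the counts do not sort the receptors by direction.
PRLR outer start, chr5:35230488-35230737, minus strand: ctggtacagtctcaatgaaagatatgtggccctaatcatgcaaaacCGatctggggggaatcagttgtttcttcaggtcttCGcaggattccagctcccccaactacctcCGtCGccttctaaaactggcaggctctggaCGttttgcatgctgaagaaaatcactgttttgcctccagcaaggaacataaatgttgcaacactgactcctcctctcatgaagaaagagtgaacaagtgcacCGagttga
PRLR inner start, chr5:35118123-35118372, minus strand: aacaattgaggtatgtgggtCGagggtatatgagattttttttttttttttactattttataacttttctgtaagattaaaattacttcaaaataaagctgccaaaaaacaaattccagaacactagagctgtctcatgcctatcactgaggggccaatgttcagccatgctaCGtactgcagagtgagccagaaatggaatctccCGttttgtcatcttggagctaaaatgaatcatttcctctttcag
IL4R, chr16:27313724-27313973, plus strand: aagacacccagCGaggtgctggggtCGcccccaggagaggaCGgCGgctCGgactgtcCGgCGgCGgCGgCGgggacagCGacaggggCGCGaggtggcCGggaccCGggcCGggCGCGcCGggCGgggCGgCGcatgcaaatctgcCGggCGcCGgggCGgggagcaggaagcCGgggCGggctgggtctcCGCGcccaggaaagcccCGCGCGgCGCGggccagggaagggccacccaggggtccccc
IL6ST, chr5:55994964-55995213, minus strand: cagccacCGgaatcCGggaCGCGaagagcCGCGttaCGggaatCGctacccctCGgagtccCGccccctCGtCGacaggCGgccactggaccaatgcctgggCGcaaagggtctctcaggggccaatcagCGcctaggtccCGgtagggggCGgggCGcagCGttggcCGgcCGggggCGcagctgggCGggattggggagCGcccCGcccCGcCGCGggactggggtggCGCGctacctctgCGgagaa

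The motif that STAT dimers bind, TTCNNNGAA, reads the same on both strands. It was present in 6.57% of the 35116 windows and in 3 of the 19 windows of the receptors, namely 2 of the 3 of LIFR and 1 of the 7 of GHR. These are shown with the motif in capitals, which lies 165, 182 and 138 bases before the start, respectively. LIFR rose and GHR fell, and a match of letters does not show that a factor binds there.
LIFR upper window, chr5:38595406-38595655, minus strand: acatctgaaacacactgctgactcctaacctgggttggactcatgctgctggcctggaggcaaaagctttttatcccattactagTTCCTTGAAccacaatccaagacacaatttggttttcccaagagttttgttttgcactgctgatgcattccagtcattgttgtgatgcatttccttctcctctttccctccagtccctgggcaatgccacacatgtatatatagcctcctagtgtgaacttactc
LIFR lower window, chr5:38557468-38557717, minus strand: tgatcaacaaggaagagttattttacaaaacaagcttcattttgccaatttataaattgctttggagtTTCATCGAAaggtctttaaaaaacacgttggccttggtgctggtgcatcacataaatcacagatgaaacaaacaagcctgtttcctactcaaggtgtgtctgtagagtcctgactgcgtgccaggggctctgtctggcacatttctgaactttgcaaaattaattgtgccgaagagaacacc
GHR, chr5:42549830-42550079, plus strand: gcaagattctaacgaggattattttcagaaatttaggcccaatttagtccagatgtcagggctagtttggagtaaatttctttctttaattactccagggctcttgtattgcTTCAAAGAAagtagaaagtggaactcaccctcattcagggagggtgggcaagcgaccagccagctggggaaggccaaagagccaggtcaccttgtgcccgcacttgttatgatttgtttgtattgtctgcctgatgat

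Signal transducers and regulators downstream of the receptors were counted in lists written from textbook knowledge. Of 9 measured JAK and STAT genes, 3 rose, none fell (1 was lower at an unadjusted p under 0.05) and 6 did not pass (median log2FC 0.24). JAK1, the kinase bound by gp130, IL4R and the interferon receptors, rose from 7.96 ± 0.04 to 8.64 ± 0.08 (SD, n = 4 each, log2FC = 0.68, FDR = 7.01e-05 from limma), and STAT3, the main factor below gp130, had a log2FC of 0.73 (FDR = 0.000229). JAK2, the kinase of PRLR, GHR and EPOR, had a log2FC of 1.55 (FDR = 0.00265, but 0.0103 without Transwell replicate 4).

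Of 17 measured feedback inhibitors of these pathways, 3 rose, 2 fell and 12 did not pass (median log2FC 0.17). SOCS3, which binds gp130 and is itself induced by STAT3, had levels of 4.83, 5.10, 4.85 and 4.79 in the Transwell inserts and 6.35, 6.49, 6.06 and 6.43 in the gut-on-chip. All gut-on-chip arrays lay higher, with a log2FC of 1.44 (SE 0.13, FDR = 4.83e-05 from limma). USP18, which docks on IFNAR2 and dampens its signal, had a log2FC of 2.09 (FDR = 0.00258, but 0.0104 without Transwell replicate 1). The phosphatase gene PTPN1, whose product removes phosphate from JAK2, rose (0.78, FDR = 1.13e-05), whereas PIAS2 fell (-1.48, FDR = 1.90e-05). SOCS2, the main inhibitor of growth hormone signalling, had a log2FC of 0.81 (FDR = 0.0355).

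Of 24 measured ligand genes of the receptors, LIF rose, EPO fell and 22 did not pass (median log2FC 0.04), beside shares of 8.81% and 7.10% over all genes. Mean levels of 18 of the 24, among them PRL, IL4, IL13 and IFNG, lay below the median of all probe sets, where a change could go unseen. IL6 and IL11, further ligands of gp130 complexes, had log2FC values of 0.48 (FDR = 0.112) and 0.86 (FDR = 0.0197). Genes that control shedding of receptors such as IL6R and GHR from the cell surface numbered 5, with 2 upregulated, 1 downregulated and 2 that did not pass. RHBDF2, which brings the sheddase ADAM17 to the surface, rose (log2FC = 1.31, FDR = 0.000288), and TIMP3, an inhibitor of ADAM17, fell (-0.75, FDR = 0.000328). ADAM17 had a log2FC of 0.43 (FDR = 0.00505), but its FDR was up to 0.0197 with 1 array left out, over 0.01 for 6 of the 8 arrays (all 4 of the Transwell inserts and gut-on-chip replicates 3 and 4) and 0.024 with limma without a trend.

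Known target genes of the STAT factors gave different counts. Of 13 measured STAT3 target genes, SAA1 (log2FC = 1.67), SOCS3 and JUNB (1.31) were upregulated, the fibrinogen gene FGG was downregulated (-1.34) and 9 did not pass (median log2FC 0.16). Of 8 STAT5 target genes, which answer prolactin and growth hormone, BCL2L1 (0.33) was upregulated, PIM1 (-0.36) was downregulated and 6 did not pass (median log2FC 0.26). The FDR rose over 0.01 without 7 of the 8 arrays in each case, for BCL2L1 all but gut-on-chip replicate 3 (at most 0.0268) and for PIM1 all but gut-on-chip replicate 1 (at most 0.028). Of the 8 STAT5 target genes, 5 were higher and 1 was lower at an unadjusted p under 0.05. Of the 13 STAT3 target genes, 4 were higher and 3 were lower at that cutoff, at which all genes were not counted. The largest values of the STAT5 list were those of SOCS2 (0.81, FDR = 0.0355), CISH (0.77, FDR = 0.0312) and IGFBP3 (0.66, FDR = 0.0369). Their groups did not overlap, as was the case for 30.7% of all genes. The mean Transwell level of SOCS2 (2.30) lay below the array medians. None of 5 STAT6 target genes, which answer interleukin 4, passed in limma, and SOCS1 had the largest value of that list (1.01, FDR = 0.0117). SOCS1 passed with 1 probe set per gene, with probe sets of 1 symbol only, with probe sets above the median level only, with limma's own trend and without Transwell replicate 3. At an unadjusted p under 0.05, 1 of the 5 was higher and 1 was lower. Of 12 measured interferon target genes, 6 were upregulated and none was downregulated (1 was lower at an unadjusted p under 0.05, median log2FC 1.31), among them IFI6 (2.98), CXCL10 (2.45), ISG15 (2.04) and OAS1 (1.45). The mean Transwell level of CXCL10 (2.20) lay below the array medians and that of SAA1 (2.51) close to them, which may limit their log2FC values. The level of IFI6 varied more between gut-on-chip arrays (SD 1.04, n = 4) than IFNAR2 (SD 0.09) or IFNGR1 (SD 0.07).

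**Figure D4:**
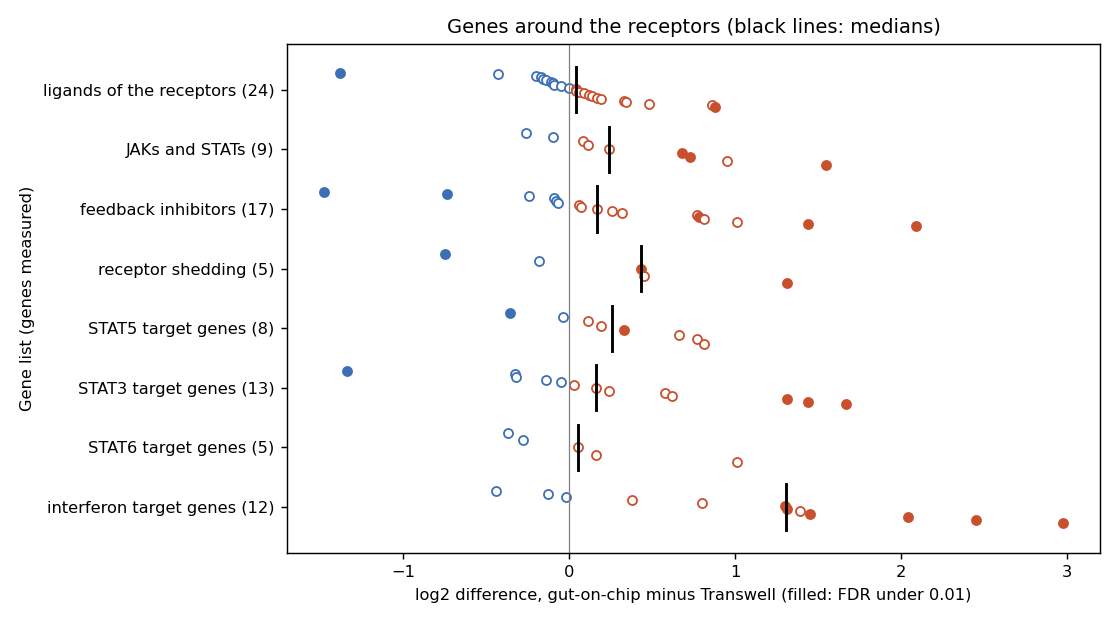
log2FC (horizontal axis) of the genes in 8 lists around the receptors (vertical axis, number of genes measured in brackets), filled where the FDR was under 0.01, with black lines for medians. Interferon target genes have the highest median at 1.31, and the ligands have a median of 0.04.

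The genes with the most similar profiles over the 8 arrays were listed for the receptors with the largest changes, as a description. For PRLR these were GSTA1 (Pearson r = 0.997), PRKAA1 (r = 0.997) and RALGPS1 (r = 0.996), and for IL20RB they were SLC7A4 (r = 0.991), LCAT (r = 0.989) and CDC42EP1 (r = 0.989). GSTA1 belongs to a family of near-identical glutathione transferases, so its probe set may also read relatives. The arrays form 2 groups, which alone gives high correlations to any gene that parts them.

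Markers were used to check the cells. The epithelial genes EPCAM (11.19 to 11.36, log2FC = 0.03) and CDH1 (11.6 to 11.81, -0.05) were high in all arrays. The keratin genes had lower levels, KRT8 from 3.3 to 4.95, KRT18 from 5.12 to 6.44 and KRT20 from 7.47 to 8.59. Of 11 measured Caco-2 and enterocyte markers, 1 was upregulated (KRT18, 0.98) and 5 were downregulated. Those that fell were ANPEP (-2.19), LGALS4 (-1.72), VIL1 (-1.01), ALPI (-0.87) and CDX2 (-0.53). The summed log2 levels of the 11 markers were 90.4 to 92.0 in the Transwell inserts and 84.2 to 88.4 in the gut-on-chip. The part of these markers in the changes of the receptors was not tested. Of 9 leukocyte markers CSF1R was upregulated (log2FC = 1.33, FDR = 0.00140), and the summed levels were 26.0 to 28.1 and 26.6 to 29.1, with PTPRC, which encodes CD45, between 1.29 and 1.72 and CD14 between 5.95 and 6.98. Of 6 fibroblast markers COL1A1 was downregulated (-0.76, FDR = 0.00902), and the summed levels were 19.1 to 20.5 and 18.2 to 19.1, with DCN between 1.25 and 1.77 and LUM between 4.73 and 5.6. Of 5 endothelial markers CDH5 was upregulated (1.84, FDR = 0.000127), and the summed levels were 9.0 to 10.6 and 11 to 12.5, with KDR between 1.5 and 2.08 and CDH5 between 3.76 and 4.28 in the gut-on-chip. In each of the 3 lists some genes thus lay below the array medians and others above, and the part of such cells in the receptor changes was not tested.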

How the data were processed

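RNA of 4 Transwell and 4 gut-on-chip samples was hybridised to Affymetrix Human Gene 2.1 ST arrays. The authors normalized the arrays by RMA, and the deposited values are log2 levels of 53617 probe sets (23866 with 1 symbol, 1852 with several, 27899 with none). The deposited rows carry the manufacturer's probe set numbers, whereas the methods describe a custom annotation, so rows may differ from those behind the study's own tests. Groups came from the sample labels. All probe sets were fitted with limma 3.58.1 in R 4.3.3, with an intensity-dependent prior variance (loess span 0.3), and p-values were adjusted by Benjamini and Hochberg over all of them, with an FDR threshold of 0.01. Members and gene lists were chosen with earlier results of these data known. Genes named are the members, their partner chains and up to 4 called genes per list with the largest changes, and other names were added after their values were seen. The fit was tested on simulated data. Alternatives were other variance priors, array weights, a filter on low levels, renewed quantile normalization, a replicate block, other FDR thresholds and leaving out each array. The number of arrays limits the precision. RefSeq windows came from GRCh38.p14.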

Additional observations from a re-analysis of the deposited data

Results flagged for a closer look

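A single array far from the others was sought in 43 genes, namely the members, their partner chains and called genes of the lists. Signal transducers and target genes were among them, and not every chain of the receptor family was checked. In their 86 groups of 4 arrays, 3 such arrays were found, where chance gives about 1 in 20. EPOR had a level of 5.01 in Transwell replicate 4 against 5.57 to 5.63 in the other Transwell arrays. LIFR had a level of 2.91 in Transwell replicate 2 against 2.52 to 2.58 in the others of its group. IFNLR1, the chain that binds interferon lambda, had a level of 5.66 in gut-on-chip replicate 3 against 5.28 to 5.32 in the others.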

How the results depend on the processing

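The 10 receptors gave 6 higher and 3 lower calls in every alternative fit and without any single array, and at an FDR under 0.001 they gave 5 and 3. The other 134 genes of the pathway lists gave 21 higher and 10 lower calls, beside shares of 8.81% and 7.10% over all genes. These calls became 32 higher and 14 lower at an FDR under 0.05, and 14 higher and 6 lower at an FDR under 0.001. They ranged from 16 to 21 higher and 7 to 11 lower with 1 array left out. The ratio of PRLR to GHR ran from -0.32 to 0.09 with 1 array left out and changed sign without Transwell replicate 2. No pairing by replicate number was seen, since deviations of same-numbered arrays correlated between -0.043 and 0.003 and no array correlated best with its own number. With 4 arrays per group, this check cannot settle whether the samples were paired. With replicate number as a block, the receptors kept 6 and 3 calls and the other pathway genes had 15 higher and 8 lower. Among the genes named, the block took the FDR over 0.01 for IL3RA (0.0186), CSF2RA (0.0436), JAK2 (0.0188), USP18 (0.0173), ADAM17 (0.0217), BCL2L1 (0.0261) and PIM1 (0.0404). Levels below the array medians, as for GHR in the gut-on-chip, limit how far a fall can be measured. The same may hold for the rise of LIFR, whose Transwell levels lay close to the array medians.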

Other observations

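Receptors for interleukin 1 and interleukin 17 signal without JAKs and were measured for comparison. Of 12 genes, IL17RA, the shared chain of the interleukin 17 receptors, was upregulated from 6.73 ± 0.08 to 7.37 ± 0.06 (SD, n = 4 each, log2FC = 0.64, FDR = 0.000259 from limma). Its partner IL17RE, which binds interleukin 17C in epithelia, was downregulated from 7.93 ± 0.04 to 6.78 ± 0.21 (SD, n = 4 each, log2FC = -1.14, FDR = 5.38e-05 from limma). IL17RB, the partner for interleukin 17E, had a log2FC of -0.79 (FDR = 0.00708), and its call was lost without any 1 of the Transwell arrays or without gut-on-chip replicate 3 or 4 (FDR at most 0.0256). The other 9 genes did not pass the test, and the median log2FC of the list was -0.01.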
